A study of Mus musculus with 2 samples.

Results

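The 54 genes described here belong to the interferon pathway of the mouse. They run from the interferon receptors and the Jak kinases to the antiviral proteins whose genes interferon switches on. They were chosen by name, as genes of interferon signalling or known interferon-stimulated genes, out of 54438 genes to which the deposited transcript values could be summed. The choice was made with earlier results of these data known. RNA was profiled in 2 libraries, called W1 and W2 after their titles, with Smart-seq II, which makes cDNA along whole transcripts from few cells. Both carry the same labels: basal cells of the mammary gland, isolated by flow sorting after antibody staining, wild type, strain C57BL/6, age 8 weeks. The series names Pdl1+ and Pdl1- basal cells, but the labels do not say which library is which. No value was used to decide it, so both libraries stayed without a group, neither has a replicate, and no p-value is given. The labels name neither the antibodies nor the numbers of mice and cells.

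Type I interferons bind a receptor made of Ifnar1 and Ifnar2, and interferon gamma binds one made of Ifngr1 and Ifngr2. The receptors activate the kinases Jak1, Tyk2 and Jak2, which phosphorylate Stat proteins. Complexes of Stat proteins with Irf9 bind the interferon-stimulated response element (ISRE), and Stat dimers bind the gamma-activated site (GAS). The target genes encode proteins that sense viral RNA, block translation or entry of viruses, or attack the membranes around intracellular microbes, and Socs proteins shut the signal off.

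The promoters show the letters these complexes read. In RefSeq windows from 250 bases before to 50 bases after the transcription start (GRCm38.p6), 2 motifs were searched: GAAA, 2 bases of any kind and GAAA again, on both strands, for the ISRE, and TTCNNNGAA, which is its own reverse complement, for the GAS. Windows were at hand for 42 of the 54 genes. The ISRE letters stood in 21 of these 42 (50%), against 1079 of 27025 genes with a window (3.99%). The GAS letters stood in 15 of 42 (35.7%), against 2582 of 27025 (9.55%). The stretches below, bases -175 to -1 in gene orientation, belong to the gene with the most reads in its role group, among those with a window, where such letters precede the start, with Ifit1 and Gbp7 added for comparison within their families. Capitals mark the motif letters; overlapping matches run together.
Irf8 (chr8:120736183-120736357, plus strand): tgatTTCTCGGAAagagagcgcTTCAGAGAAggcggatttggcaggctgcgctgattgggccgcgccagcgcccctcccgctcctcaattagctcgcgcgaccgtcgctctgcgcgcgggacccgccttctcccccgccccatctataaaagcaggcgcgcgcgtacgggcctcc
Ifit1 (chr19:34640714-34640888, plus strand): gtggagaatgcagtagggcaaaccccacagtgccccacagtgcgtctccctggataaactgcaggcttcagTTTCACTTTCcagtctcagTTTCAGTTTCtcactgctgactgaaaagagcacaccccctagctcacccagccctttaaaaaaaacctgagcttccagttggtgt
Ifit3 (chr19:34583354-34583528, plus strand): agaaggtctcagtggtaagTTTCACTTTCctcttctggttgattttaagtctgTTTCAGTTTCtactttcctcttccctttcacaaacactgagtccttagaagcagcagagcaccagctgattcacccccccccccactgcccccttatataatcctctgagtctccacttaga
Oas1a (chr5:120907526-120907700, minus strand): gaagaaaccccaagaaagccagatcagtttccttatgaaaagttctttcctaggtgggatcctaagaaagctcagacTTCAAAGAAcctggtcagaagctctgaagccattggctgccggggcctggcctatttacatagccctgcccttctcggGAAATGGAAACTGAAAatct
Gbp2 (chr3:142620488-142620662, plus strand): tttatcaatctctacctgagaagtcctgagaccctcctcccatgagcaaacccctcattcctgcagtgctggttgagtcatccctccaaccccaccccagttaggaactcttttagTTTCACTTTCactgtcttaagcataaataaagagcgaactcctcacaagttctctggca
Gbp7 (chr3:142530161-142530335, plus strand): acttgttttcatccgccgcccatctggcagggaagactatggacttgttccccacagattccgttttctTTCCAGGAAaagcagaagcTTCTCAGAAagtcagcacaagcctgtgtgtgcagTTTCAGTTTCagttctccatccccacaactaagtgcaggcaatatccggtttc
Irgm1 (chr11:48871421-48871595, minus strand): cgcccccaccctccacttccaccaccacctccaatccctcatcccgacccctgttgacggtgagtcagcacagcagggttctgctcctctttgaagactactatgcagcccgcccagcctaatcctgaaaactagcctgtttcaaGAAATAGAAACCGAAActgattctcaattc
Isg15 (chr4:156200819-156200993, minus strand): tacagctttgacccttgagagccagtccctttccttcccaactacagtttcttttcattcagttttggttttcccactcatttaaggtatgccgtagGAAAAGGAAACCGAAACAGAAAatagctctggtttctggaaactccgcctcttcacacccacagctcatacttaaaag
Bst2 (chr8:71537473-71537647, minus strand): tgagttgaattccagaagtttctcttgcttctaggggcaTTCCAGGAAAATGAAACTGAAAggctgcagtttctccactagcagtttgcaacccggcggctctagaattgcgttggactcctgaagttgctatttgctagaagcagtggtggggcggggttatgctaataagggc
Socs3 (chr11:117969367-117969541, minus strand): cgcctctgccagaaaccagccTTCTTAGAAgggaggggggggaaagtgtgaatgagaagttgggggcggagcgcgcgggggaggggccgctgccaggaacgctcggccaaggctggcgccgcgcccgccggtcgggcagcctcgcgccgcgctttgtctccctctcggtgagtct

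Ifit1 and Ifit3 each carried 2 separate ISRE matches, at -104 and -85 for Ifit1 and at -156 and -122 for Ifit3. Isg15 carried 3 that overlap, between -78 and -57. Oas1a, Bst2 and Irgm1 carried an overlapping pair each. The Bst2 pair also overlapped a GAS match at -136, and Oas1a held a separate GAS match at -98. Irf8, shown at 1 of its 2 annotated starts, and Socs3 held GAS matches but no ISRE match. In Ifitm3 all 3 matches lay after the start, between 3 and 29. Jak1, Dtx3l, Ifi44 and Xaf1 held neither set of letters in this window. A match is a string of letters and not a measured binding site.

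**Figure D1:**
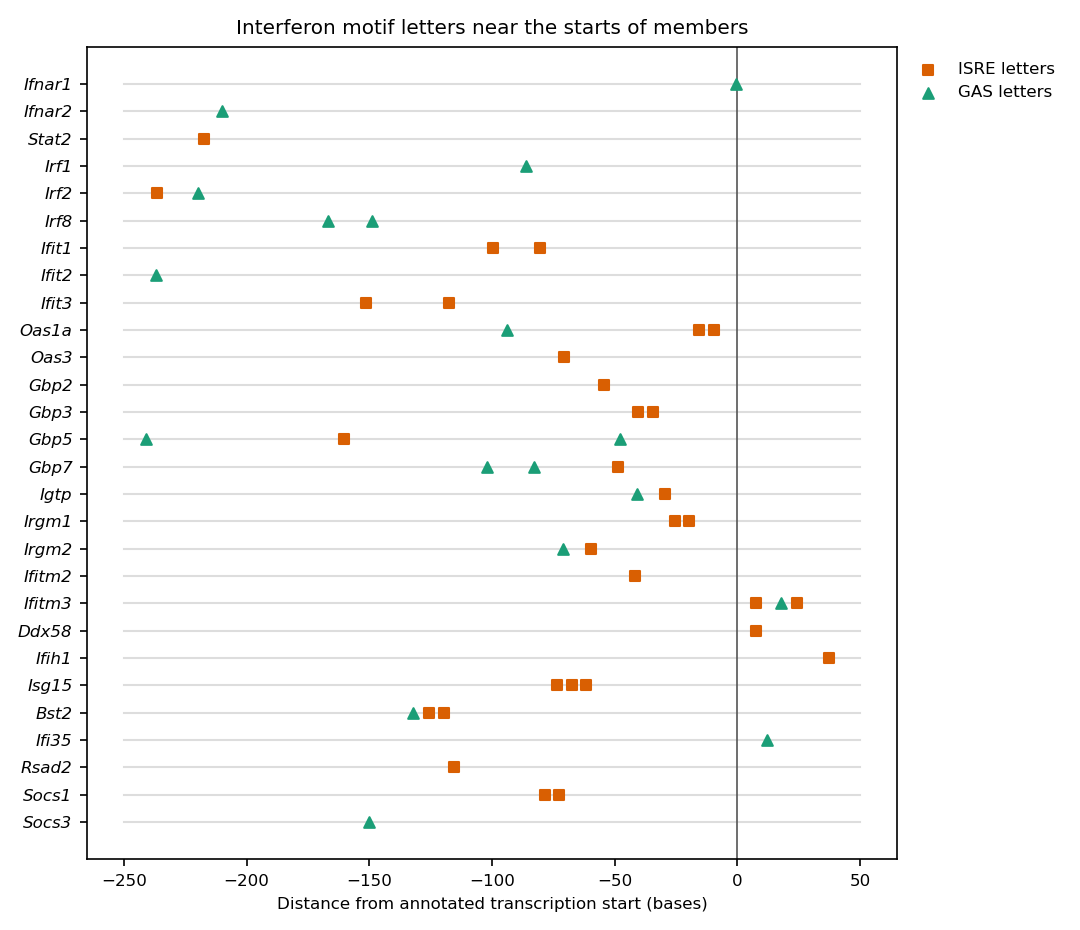
Positions of ISRE letters (squares) and GAS letters (triangles) relative to the annotated transcription start, in bases, for each of the genes with a match; symbols sit at the middle of a match. Most matches lie in the 250 bases before the start, while those of Ifitm3, Ddx58, Ifih1 and Ifi35 lie after it and that of Ifnar1 spans it.

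Depth, recovered from the deposited FPKM values, was 3055840 reads in W1 and 3800029 reads in W2. Values are in TPM, which scales reads for transcript length and library depth. The cell type markers of the 2 libraries went different ways. Of the basal keratins, Krt5 had 0 reads in W1 and 3923 in W2, and Krt14 had 1 read in W1 and 6230 in W2. These keratins of W1 go against its basal label. Of 8 basal markers compared, 5 were higher in W2 (62.5%, against 32.9% of all genes). The 3 within 2-fold were Itga6 (140 TPM in W1, 170 TPM in W2), Itgb1 (81.8 TPM in W1, 120 TPM in W2) and Lama3. Trp63, Itgb4 and Lamb3 had 0 reads in both libraries. Summed over 12 basal markers the level was 223 TPM in W1 and 15228 TPM in W2, and over 7 myoepithelial markers it was 59.4 TPM in W1 and 25486 TPM in W2. The 10 luminal and general epithelial markers summed to 12.1 TPM in W1 and 4714 TPM in W2, with Epcam and Cdh1 at 0 reads in W1. The 12 endothelial markers summed to 4971 TPM in W1 and 6.01 TPM in W2. All 9 endothelial markers that could be compared were higher in W1, against 34.7% of all genes. Pecam1, Cdh5, Kdr and Cldn5 had 0 reads in W2. Tie1, Tek and Vwf were too low to compare, with 2, 1 and 12 reads in W1 and 0, 0 and 1 in W2. The 14 leukocyte markers summed to 89.1 TPM in W1 and 7.17 TPM in W2, with 8 of them at 0 in both. Ptprc, which marks all leukocytes, had 6 reads in W1 and 0 in W2. Lyz2 had 186 reads in W1 and Cd79a had 145, both with 0 in W2. The 7 fibroblast markers summed to 3.19 TPM in W1 and 206 TPM in W2. Mitochondrially encoded mRNA took 2.0% of TPM in W1 and 12.9% in W2. In bulk RNA, more cells of a type and more RNA per cell cannot be told apart. The part of these markers in each interferon pathway difference below was not tested. Cd274, which encodes Pd-l1, had 649 reads in W1 and 0 in W2.

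Most of the pathway genes that could be compared were higher in library W1. A gene was compared where either library reached 1 TPM, and called higher at 2-fold or more on the scale of TPM + 1, which understates the ratio of low genes. Among 33 members compared, 24 were higher in W1 (72.7%), where 34.7% of all 12587 genes compared were. Only 2 were higher in W2 (6.06%), Ifnar1 and Irf2, where 32.9% of all genes were. Because the members were chosen with earlier results of these data known, these shares describe the list and are not an independent test. The median log2 ratio of W1 over W2 was 2.37 over the 33 members, also with genes at 0 reads set at their bound, and -0.07 over all genes. Of the 54 members, 28 had reads in both libraries, 13 in W1 alone and 1 in W2 alone, a split not counted over all genes. The other 12 were listed at 0 in both: Ifngr1, Jak2, Irf1, Oas2, Oasl1, Gbp4, Iigp1, Irgm2, Mx2, Trim25, Rsad2 and Ifi27. Each of these 12 has 2 to 10 listed transcripts, whereas all 6 members with a single listed transcript had reads. None of the 21 member transcripts without a 50-base word of their own had a read, so reads that fit several isoforms can be missing from both libraries, and a gene at 0 is not shown to be silent.

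**Figure D2:**
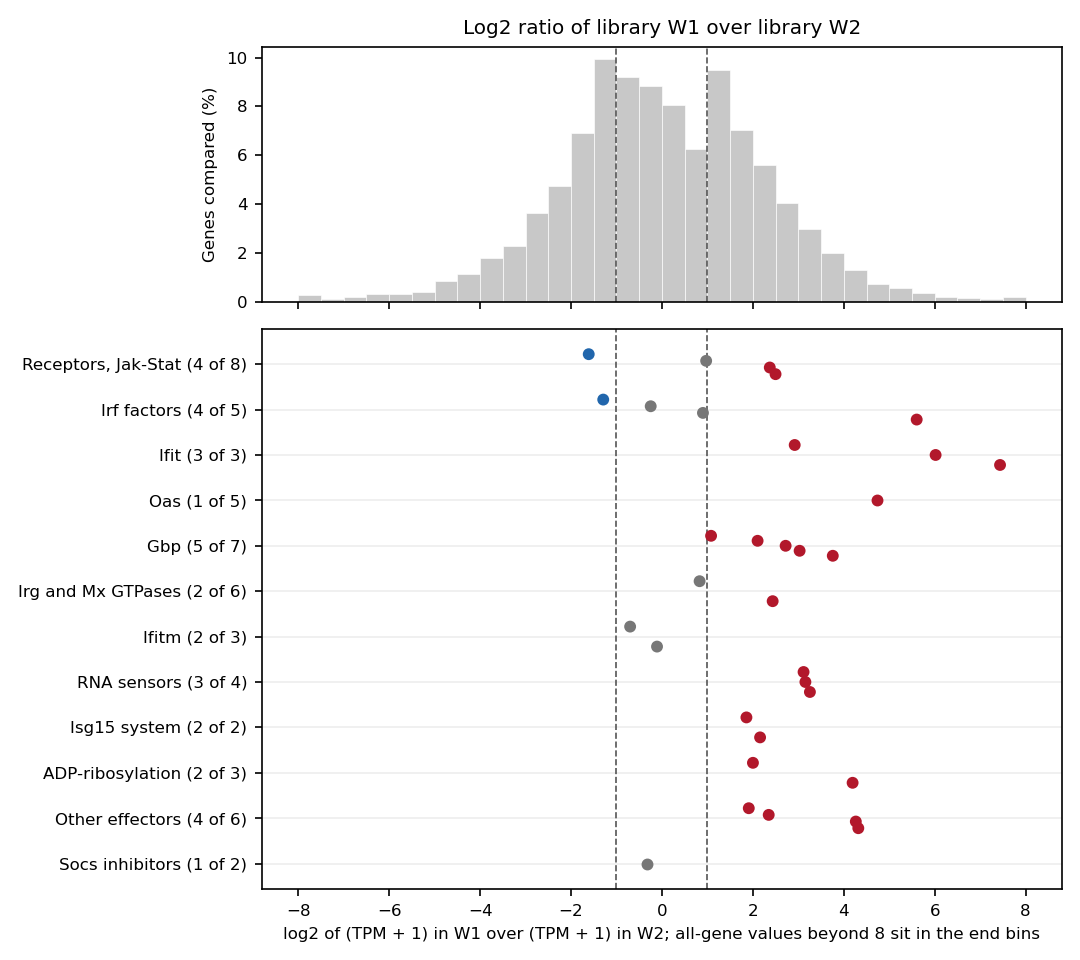
Log2 ratios, W1 over W2, of TPM + 1 for all 12587 genes compared (top, percent of genes per bin) and for the members compared in each role group (bottom, 1 point per gene; red, higher in W1; blue, higher in W2; grey, within 2-fold; numbers give members compared of members listed). The members lie mostly right of the upper 2-fold line, and the Ifitm and Socs points lie between the lines.

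The receptor genes were mixed in direction and differed by transcript. Ifnar2 had 13.2 TPM in W1 (76 reads) and 6.25 TPM in W2 (51 reads). Its longer coding transcript Ifnar2-201 had 50 reads in W1 and 47 in W2, while the shorter coding Ifnar2-203 had 26 in W1 and 4 in W2. The gene stayed within 2-fold on the TPM + 1 scale. Ifnar1 had 5.36 TPM in W1 (62 reads) and 18.4 TPM in W2 (138 reads), which put it among the genes higher in W2. That call rests on 1 transcript that is not coding. Ifnar1-205, a retained-intron transcript of 2 exons (chr16:91485277-91491789), had 2 reads in W1 and 109 in W2, a ratio of 54.1 in favour of W2 with a 95% interval of 14.6 to 453. The coding Ifnar1-201 had 60 reads in W1 and 29 in W2 and was 2.08-fold higher in W1 (1.32 to 3.37). Intervals here and below are exact Clopper-Pearson intervals on the ratio of reads, scaled to TPM, and cover counting error only. Ifngr2, the signalling chain of the interferon gamma receptor, had 6 reads in W1 and 9 in W2, and Ifngr1 was listed at 0.

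Jak1, the kinase shared by both receptors, was the best covered of the signalling genes. It had 709 TPM in W1 (10151 reads) and 136 TPM in W2 (1872 reads), with a ratio by reads of 5.46 (5.20 to 5.74). The coding Jak1-201 carried 10081 of the reads in W1 and 1853 in W2. Tyk2, which pairs with Ifnar1, had 3 reads in W1 and 0 in W2, and Jak2 was listed at 0 in both. Stat2 had 19 reads in W1 and 1 in W2, all on retained-intron transcripts. Of the 8 receptor, kinase and Stat genes, 4 could be compared. Of these, 2 were higher in W1 (50%, against 34.7% of all genes) and 1 in W2 (25%, against 32.9%). Among these calls, only that of Jak1 rests on coding transcripts.

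Among the Irf transcription factors the libraries differed most at Irf8. Irf8, which drives the development of myeloid cells and also acts with other Irf proteins on ISRE letters, had 86.8 TPM in W1 (753 reads) and 0.806 TPM in W2 (7 reads). The ratio was 108 (52.3 to 270.3). Of the 14 leukocyte markers, Lyz2 and the B cell gene Cd79a were higher in W1, Csf1r was within 2-fold with 122 reads in W1 and 99 in W2, and Itgam, Adgre1 and Tyrobp were at 0 in both. All 9 endothelial markers compared were also higher in W1, against 34.7% of all genes. The part of either list in the Irf8 difference was not tested. Irf7, which amplifies type I interferon production, had 2.07 TPM in W1 and 2.64 TPM in W2 (14 reads and 18 reads), with an interval that spans equality. Irf9, a DNA-binding partner of Stat2, had 12 reads in W1 and 1 in W2, and 10 of the 12 were on a retained-intron transcript. Irf2, a repressor at ISRE letters, was called higher in W2 on 1 read in W1 and 2 reads in W2, all outside its coding transcripts, which is too few to read. Irf1 was listed at 0 in both, and the antisense gene Gm17334 that overlaps it had 95 reads in W1 and 148 in W2.

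The Ifit genes, whose proteins bind foreign RNA and block its translation, were higher in W1 in all 3 cases, against 34.7% of all genes. Ifit3 had 172 TPM in W1 (911 reads) and 0 reads in W2, at least 306-fold higher in W1 when W2 is given a floor of 3 reads. Ifit2 had 63.9 TPM in W1 (739 reads) and 0 reads in W2, at least 248-fold. Ifit1 had 64.5 TPM in W1 (519 reads) and 7.65 TPM in W2 (62 reads), a ratio of 8.43 (6.47 to 11.2). W2 therefore held Ifit1 reads but none of its neighbours on chromosome 19. The near copy Ifit3b, not among the 54, had 274 reads in W1 and 0 in W2. Of the 1696 50-base words of Ifit3-201, 827 occur in no other listed transcript, so the split between Ifit3 and Ifit3b is uncertain.

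Oas enzymes make the short oligoadenylates that activate RNase L. Oas1a had 25.4 TPM in W1 (145 reads) and 0 reads in W2, at least 48.7-fold higher in W1. Oas3 had 13 reads in W1 and Oasl2 had 4, both with 0 in W2. Oas2 and Oasl1 were listed at 0 in both, so no Oas member had a read in W2.

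Guanylate-binding proteins assemble on the membranes around microbes inside the cell, and their genes lie in clusters on chromosomes 3 and 5. Of the 7 Gbp genes, 5 could be compared and all 5 were higher in W1, where 34.7% of all genes compared were. Their median log2 ratio was 2.72, or 3.03 with the genes at 0 reads in W2 set at their bound. Gbp2 had 73.1 TPM in W1 (557 reads) and 8.08 TPM in W2 (62 reads), a ratio of 9.04 (6.95 to 12.0). Gbp7 had 33.9 TPM in W1 (576 reads) and 1.58 TPM in W2 (27 reads), a ratio of 21.5 (14.6 to 32.9). The chromosome 3 genes Gbp2, Gbp3, Gbp5 and Gbp7 summed to 108 TPM in W1 and 9.66 TPM in W2. The chromosome 5 genes Gbp4, Gbp6 and Gbp9 summed to 11.3 TPM in W1 and 0.55 TPM in W2, all on transcripts not annotated as coding. Gbp6 had 72 reads in W1 and 7 in W2, and Gbp9 had 45 in W1 and 0 in W2. Gbp5 had 7 reads in W1 and Gbp3 had 1, both with 0 in W2. These genes are close paralogues with overlapping annotation, so the split among them is uncertain.

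The immunity-related GTPases and Mx proteins were thinly covered. Irgm1, which regulates the other immunity-related GTPases, had 4.38 TPM in W1 (30 reads) and 2.03 TPM in W2 (14 reads), a ratio of 2.16 (1.11 to 4.40) that stays within 2-fold on the TPM + 1 scale. Mx1, a GTPase that acts against influenza virus in mice with an intact allele, had 4.41 TPM in W1 (41 reads) and 0 reads in W2, at least 13.8-fold higher in W1. Of its 41 reads, 30 were on the nonsense-mediated decay transcript Mx1-203 and 11 on the coding Mx1-201. Igtp was the 1 member with reads in W2 alone, with 2 reads. Iigp1, Irgm2 and Mx2 were listed at 0.

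The Ifitm genes encode small membrane proteins that block fusion of viruses with the cell. Ifitm3 and Ifitm2 had the highest listed TPM of the members in both libraries, and both stayed within 2-fold between them. Ifitm3 had 11848.5 TPM in W1 (24341 reads) and 19249 TPM in W2 (39812 reads), 1.62-fold higher in W2 (1.60 to 1.65). Ifitm2 had 2723 TPM in W1 (5404 reads) and 2935 TPM in W2 (5865 reads), 1.08-fold higher in W2 (1.04 to 1.12). The sign for Ifitm2 turns with the scaling, its log2 ratio being -0.11 in TPM and 0.20 in depth-scaled reads without length scaling. Ifitm1 had 2 reads in W1 and 0 in W2. Ifitm2 and Ifitm3 together held 56.0% of all member reads in W1 and 87.2% in W2. Without these, the members summed to 2839 TPM in W1 and 788 TPM in W2, while with them the sums were 17410 TPM in W1 and 22972 TPM in W2. The order of the 6 members with a single listed transcript differed as well: it ran Ifitm3, Ifitm2, Ifit3, Isg15, Ifit1 and Oas1a in W1, and Ifitm3, Ifitm2, Isg15 and Ifit1 in W2, with Ifit3 and Oas1a at 0.

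**Figure D3:**
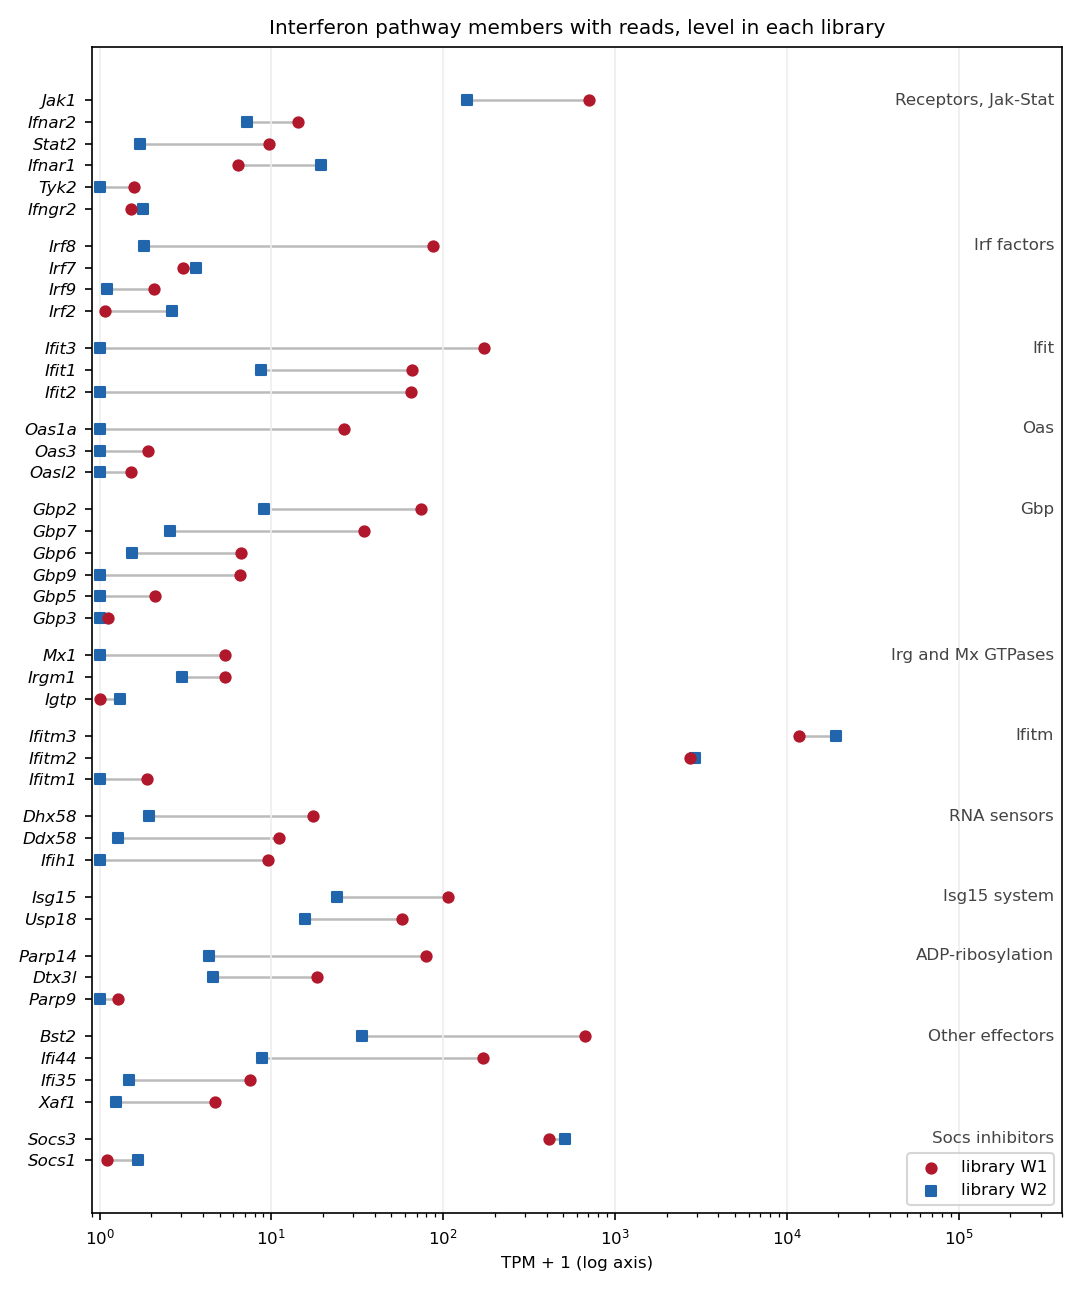
Level of each of the 42 members with reads in library W1 (red circles) and library W2 (blue squares), as TPM + 1 on a log axis, by role group. Circles lie right of squares for most genes, the Ifitm and Socs3 pairs lie close together, and the longest lines belong to Ifit2, Ifit3 and Irf8.

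The 3 cytosolic RNA sensors of the RIG-I family were higher in W1, where 34.7% of all genes compared were. Ifih1, which encodes Mda5, had 8.54 TPM in W1 (113 reads) and 0 reads in W2, at least 37.9-fold higher in W1. Ddx58, which encodes RIG-I, had 94 reads in W1 and 3 in W2, a ratio of 31.5 (10.5 to 156), all on processed transcripts outside its coding ones. Dhx58, which encodes Lgp2, had 97 reads in W1 and 7 in W2, a ratio of 14.0 (6.52 to 35.6). Its exons overlap the antisense gene Dhx58os, which had 88 reads in W1 and 15 in W2. How the counting used strand is not known here, so reads of this pair cannot be told apart. Trim25, a ubiquitin ligase that acts on RIG-I, was listed at 0.

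Isg15, a ubiquitin-like modifier, and Usp18, the protease that removes it and also inhibits Ifnar2 signalling, had reads in both libraries. Isg15 had 106 TPM in W1 (243 reads) and 23.0 TPM in W2 (53 reads), a ratio of 4.62 (3.42 to 6.34). Usp18 had 56.3 TPM in W1 (300 reads) and 14.8 TPM in W2 (80 reads), a ratio by reads of 3.78 (2.94 to 4.89). The antisense gene Gm44148 overlaps Usp18 and had 77 reads in W1 and 32 in W2. These ratios were smaller than those of the Ifit genes, where 2 of 3 members had no read in W2.

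Parp14, an ADP-ribosyltransferase, and Dtx3l, the ubiquitin ligase partner of Parp9, were both higher in W1. Parp14 had 78.0 TPM in W1 (1210 reads) and 3.32 TPM in W2 (75 reads). Its coding transcript Parp14-201 gave a ratio of 15.6 (12.4 to 20.01), and the retained-intron Parp14-202 had 46 reads in W1 and 0 in W2. Dtx3l had 17.3 TPM in W1 (279 reads) and 3.58 TPM in W2 (58 reads), a ratio of 4.84 (3.64 to 6.54). Parp9, which shares exon sequence with Dtx3l on the opposite strand, had 3 reads in W1 and 0 in W2.

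The 4 remaining effectors that could be compared were higher in W1 as well, where 34.7% of all genes compared were. Bst2, known as tetherin, holds budding virus at the cell surface. It had 672 TPM in W1 (1612 reads) and 32.7 TPM in W2 (79 reads), a ratio of 20.5 (16.4 to 26.1). Ifi44 had 170 TPM in W1 (1500 reads) and 7.89 TPM in W2 (70 reads), a ratio of 21.6 (17.0 to 27.8). Both have reads in each library, so neither ratio depends on a floor. Ifi35 had 27 reads in W1 and 2 in W2. Xaf1, a protein linked to cell death, had 29 reads in W1 and 2 in W2, but its coding transcript had 2 reads in each and 27 reads of W1 fell on a retained intron. Rsad2, which encodes viperin, and Ifi27 were listed at 0 in both.

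The feedback inhibitor Socs3 was well covered and close between the libraries. It had 410 TPM in W1 (3131 reads) and 512 TPM in W2 (3988 reads), 1.27-fold higher in W2 by reads scaled to TPM (1.21 to 1.33). The size of this difference depends on the scaling. The log2 ratio of Socs3 was -0.32 in TPM, -0.03 in depth-scaled reads without length scaling and -0.02 in FPKM. Socs1, the inhibitor that acts on Jak1, Jak2 and Tyk2, had 1 read in W1 and 6 in W2.

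Reads were also split by transcript type. Coding transcripts took 52648 of the 53143 member reads in W1 and 52232 of 52373 in W2. Ifitm2 and Ifitm3 had coding reads only, and without them the members had 23398 reads in W1 and 6696 in W2. Transcripts not annotated as coding took 495 reads over 29 transcripts in W1 and 141 reads over 6 transcripts in W2. With Ifitm2 and Ifitm3 left out, these reads were near-equal shares of member reads in W1 and W2. These counts, and that of members below, were not made over all genes. In W2, 109 of the 141 belonged to Ifnar1-205 alone. Among 30 members with 20 reads or more over both libraries, 7 had most of their reads on such transcripts: Ifnar1, Stat2, Gbp6, Gbp9, Mx1, Ddx58 and Xaf1. For these genes the sum over transcripts is not a level of coding mRNA. When coding transcripts alone were summed, a setting chosen after seeing the data, 18 of 25 members compared were higher in W1 and 0 in W2, where 28.5% of 7168 genes compared in this way were higher in W1 and 34.2% in W2.

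**Figure D4:**
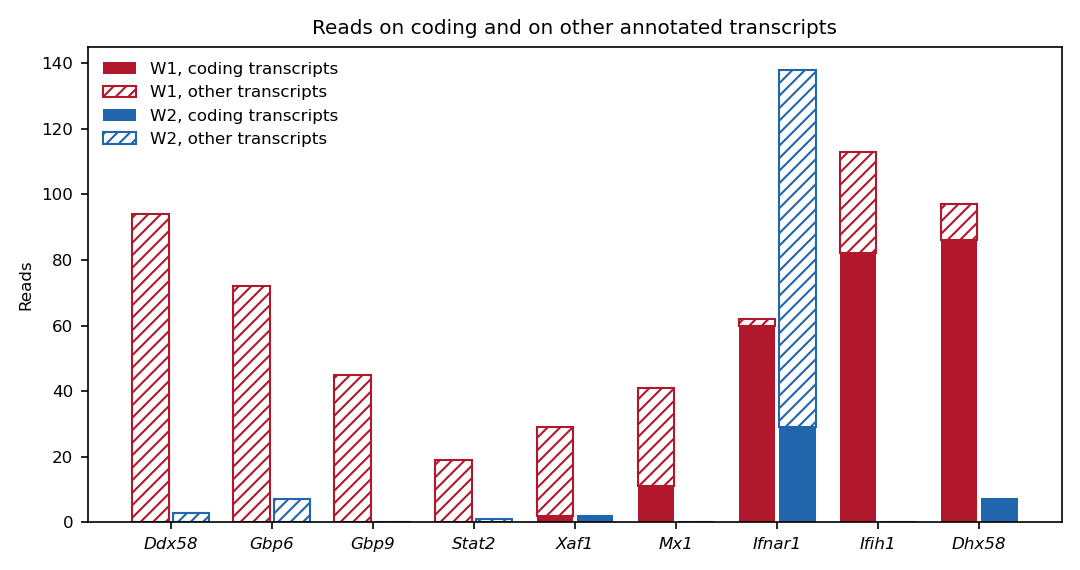
Reads on coding transcripts (filled) and on other annotated transcripts (hatched) of 9 members, in library W1 (red, left bar) and library W2 (blue, right bar). Ddx58, Gbp6, Gbp9 and Stat2 have no coding reads, and most Ifnar1 reads of W2 are not coding.

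Other genes of the pathway were taken from a list of 135, also chosen with earlier results of these data known, of which 75 could be compared. Of these, 43 were higher in W1 (57.3%, against 34.7% of all genes) and 14 in W2 (18.7%, against 32.9% of all genes), with a median log2 ratio of 1.36, or 1.41 with genes at 0 reads set at their bound. Both directions held well covered genes. Of 10 interferon ligand genes only Ifnb1 had reads, 4 in W1 and 0 in W2. Ifnlr1, the specific chain of the interferon lambda receptor that epithelia use, had 0 reads in W1 and 16.7 TPM in W2 (213 reads), at least 70.5-fold higher in W2.

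Among the other Stat and Irf factors, Irf3, which induces Ifnb1, had 10.5 TPM in W1 (27 reads) and 2.64 TPM in W2 (7 reads). Stat6 had 359 reads in W1 and 133 in W2, a ratio of 2.72 (2.22 to 3.34). Stat3 had 87 reads in W1 and 26 in W2, but its coding transcript Stat3-202 had 28 in W1 and 23 in W2. Tmem173, which encodes Sting, the adaptor of DNA sensing, had 359 TPM in W1 (2504 reads) and 32.3 TPM in W2 (227 reads), a ratio of 11.1 (9.69 to 12.8). Its upstream enzyme Cgas had 9 reads in W1 and 35 in W2, a ratio of 3.86 in favour of W2 (1.82 to 9.14). The nucleic acid sensor Zbp1 had 35 reads in W1 and 11 in W2, and the helicase Ddx60 had 28 in W1 and 0 in W2.

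Of 11 paralogues of the members compared, 9 were higher in W1 (81.8%, against 34.7% of all genes) and 2 in W2 (18.2%, against 32.9%). Gm12250, an immunity-related GTPase, had 254 reads in W1 and 0 in W2. Ifi27l2a had 485 TPM in W1 (681 reads) and 90.6 TPM in W2 (128 reads), and Parp12 had 176 reads in W1 and 45 in W2. Ifitm10 had 2 reads in W1 and 422 in W2, and Parp10 had 0 in W1 and 22 in W2. Among other interferon-stimulated effectors, 23 of 36 compared were higher in W1 (63.9%, against 34.7% of all genes) and 4 in W2 (11.1%, against 32.9%). The chemokine gene Cxcl9 had 1163 reads in W1 and 0 in W2, at least 390.3-fold higher in W1, and Trim30a had 1357 in W1 and 0 in W2, at least 455-fold. Ifi204 had 613 reads in W1 and 1 in W2. Slfn5 had 51.6 TPM in W1 (826 reads) and 14.6 TPM in W2 (16 reads), a ratio of 3.54 by TPM and 52.0 by reads. Its coding transcript Slfn5-201 had 819 reads in W1 and 0 in W2. Ifi202b, of the same gene family as Ifi204, had 0 reads in W1 and 128 in W2, and Ifi205 had 11 in W1 and 69 in W2. Of 11 negative regulators compared, 3 were higher in W1 (27.3%) and 3 in W2 (27.3%), near the shares over all genes of 34.7% and 32.9%. Ptpn2, a phosphatase of Jak and Stat proteins, had 173 reads in W1 and 0 in W2. Socs5 had 28.2 TPM in W1 (397 reads) and 87.0 TPM in W2 (1233 reads), a ratio of 3.08 in favour of W2 (2.75 to 3.46). Socs6 had 16 reads in W1 and 107 in W2, and Socs2 had 9 in W1 and 21 in W2.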

How the data were processed

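RNA of 2 libraries labelled as mammary basal cells was analysed from transcript tables. The authors deposited TPM and FPKM values for 137767 Ensembl transcripts, and 0 other value columns were present. Bowtie 0.12.2 and the builds mm8 and GRCm38 are named, per the submitters' processing notes; counting tool, annotation and strand setting: not given in the sources used here. Identifiers were matched to GENCODE M21 (137654 matched, 113 not), and values were summed per gene. FPKM times transcript length falls on whole multiples of 1 step, which gave reads per transcript; within 0.1 read, 98.47% of values above 0 were whole in W1 and 98.07% in W2. The statistic was log2 of TPM + 1 in W1 over W2, with no test, since there is 1 library of each title. Ratios use recovered reads scaled to TPM; a library at 0 reads got a floor of 3 reads, and intervals and floors cover counting error only, since no molecular identifiers are named. Members with 20 reads or more in 1 library, and the receptors and Jak kinases, are named with values; of other pathway genes, up to 4 per list and direction with the most reads, plus Irf3; some results are not reported here. The members and lists were chosen with earlier results of these data known. All 135 further pathway symbols matched, Mb21d1 as Cgas and Mnda as Ifi211. Promoter sequences are from RefSeq, GRCm38.p6. Steps were tested on simulated data. Software was Python 3.11.15 with pandas 2.3.3, scipy 1.17.1, numpy 2.4.6 and matplotlib 3.10.9. Tried were 10 alternatives of pseudocount, filter, scaling and transcript choice.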

Additional observations from a re-analysis of the deposited data

How the results depend on the processing

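Members higher in W1 numbered 24 of 33 compared, with 34.7% of all genes. By count they ranged over 10 alternatives from 18 of 25 to 28 of 36. The 18 of 25 came from coding transcripts alone, with 28.5% of all genes, a setting added after seeing the data. The 28 of 36 came from depth-scaled reads with no length scaling, with 39.2% of all genes. The share of members was lower with no filter on low values, at 24 of 42, with 27.6% of all genes. It was also lower with a pseudocount of 5 TPM, at 20 of 33, with 16.8% of all genes. Members higher in W2 numbered 2, against 1 with a pseudocount of 5 TPM, 1 with at least 20 reads in a library, 0 in depth-scaled reads and 0 on coding transcripts alone. The member median of 2.37 became 3.43 with a pseudocount of 0.1 TPM and 1.38 with 5 TPM. For the other pathway genes the median of 1.36 became 1.95 with 0.1 TPM and 0.42 with 5 TPM, and the 14 genes higher in W2 became 8 with 5 TPM. The log2 ratio of Ifnar1 was -1.61 over all transcripts and 0.82 over coding transcripts alone, since the coding sum leaves out Ifnar1-205. Of 28 named members, 26 kept their sign in each alternative that gave a value, the exceptions being Ifnar1 and Ifitm2 (-0.40 to 0.20); Ddx58, Gbp6, Gbp9 and Xaf1 had no value on coding transcripts alone. Scaling moved the median of all genes from -0.07 in TPM to 0.23 in FPKM, 0.26 in depth-scaled reads and -0.31 without mitochondrial and ribosomal protein genes. Over all genes, 4370 were higher in W1 and 4142 in W2, against 4685 in W1 and 3488 in W2 in FPKM, 5122 in W1 and 3762 in W2 in depth-scaled reads, 2112 in W1 and 2509 in W2 with 5 TPM, 2043 in W1 and 2454 in W2 on coding transcripts alone, and 2664 in W1 and 3062 in W2 with at least 20 reads. No paired analysis was possible because there is 1 library of each title and the labels give no group. Depth limits genes under 20 reads, and isoform-shared reads limit genes with many transcripts.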
